A study of Gallus gallus with 403 samples.

Results

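The genes described here are the chicken cytochrome P450 enzymes and the enzymes that conjugate or oxidise their products, as an Affymetrix Chicken Genome array measured them in 20 tissues. A gene was a member when its symbol in the platform's annotation began with CYP and a digit, GST, UGT1, UGT2, SULT, or ALDH and a digit. The rule set aside CYP7A1, CYP8B1, CYP27A1, CYP19A1, CYP11A1 and CYP17A1, which make bile acids and steroid hormones. It found 72 genes among the 13009 that the array names, read by 121 probe sets, and each gene was represented by the probe set with the highest mean over all arrays. By the role usual for a family, 19 were cytochromes that act on foreign compounds and 6 were cytochromes that act on fatty acids. A further 5 act on sterols and steroids, 4 on retinoids and 2 on vitamin D, and 1 is of unknown substrate. The 6 include CYP2J19, which is described below as a ketocarotenoid enzyme. The others were 10 genes grouped by symbol as glutathione S-transferases, GSTCD among them, 2 UDP-glucuronosyltransferases and 8 sulfotransferases. Last came 4 enzymes grouped as retinaldehyde dehydrogenases, ALDH8A1 among them, and 11 other aldehyde dehydrogenases. Symbols are those of the platform, and a human-style name such as CYP3A4 or CYP2D6 does not make the chicken gene the single counterpart of the human one.

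Cytochrome P450 enzymes of the CYP1, CYP2 and CYP3 families insert oxygen into drugs, plant compounds and hormones, in liver and in the lining of the gut. Glutathione S-transferases, UDP-glucuronosyltransferases and sulfotransferases then attach glutathione, glucuronic acid or sulfate, which makes the products soluble enough to be excreted. Aldehyde dehydrogenases oxidise aldehydes to acids, and some of them make retinoic acid, the hormone form of vitamin A.

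The arrays were hybridised with RNA of tissues, of cecal epithelia and of oocytes, for which the labels name tissue, age, sex and replicate, and no treatment, strain or genotype. Liver was labelled day 0, 1, 3, 7, 9, 49 and 56; whole intestine day 0, 1, 3, 7, 14, 21 and 28; duodenum day 0, 1, 7, 14, 21, 28, 35, 42 and 49; jejunum day 1, 7, 14, 21, 28, 35 and 42. Ileum was labelled day 28, cecal epithelia day 14, cerebral cortex day 7, and whole brain day 0, 1, 7, 8, 9, 14, 21, 28, 35, 42 and 49. Lung was labelled day 1, 7, 14, 21, 28, 35 and 42, and retina day 1, 7, 9, 14, 21, 28 and 35. Spleen, pineal gland, growth plate and gastrocnemius muscle were labelled day 1, 7, 14, 21 and 28. Abdominal fat was labelled day 1, 7, 10, 14, 21, 28, 35, 42 and 49. Pectoralis muscle was labelled day 0, 1, 7, 14, 21 and 28, and 6 more arrays had conflicting age labels. The gonads were testes and ovary at week 17, ovary at year 2, ovarian cortex at week 16 and oocytes at week 21. Most groups held 4 arrays, 2 labelled male and 2 female; liver at day 56 and the gonads other than oocytes held 3, and brain at day 21 held 6. The arrays of ovary at week 17 are all labelled male, those of oocytes male and female alike, and no label states the event from which days run. Nothing in the labels says that replicates were separate birds, so p-values measure the spread between arrays, which may be technical. Accession numbers form an earlier stretch of 251 arrays and a later one of 152, called here the first and the second run. Ages were compared within a run, while the organ classes of day 7 took retina, spleen, abdominal fat, growth plate and jejunum from the second and the others from the first.

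Several groups need care. The median SD of a gene between replicates was 0.0896 to 0.2017 in 45 of the 101 groups, but 0.3717 to 0.5371 in 18 groups of the first run and 0.4095 to 0.5237 in all 38 of the second. The wide groups of the first run include liver at days 0 and 49, duodenum at days 0 and 7, brain at days 0, 7, 8 and 9, testes and ovary at week 17. In 16 of 17 of them replicate 1 lay nearer to an array of another group than to its own replicates. The comparisons between groups that use them were therefore repeated with replicate 1 alone, an alternative chosen after the values were seen. It leaves 1 array in each wide group, so the spread comes from the other groups of the fit. A missed threshold there need not mean a smaller difference, and a passed one is no independent check. The 3 arrays labelled liver at day 56 do not carry a liver profile. Their mean over 9 hepatocyte genes was 6.68, against 12.88 to 13.15 in the other liver groups, and albumin (ALB) stood at 8.03 ± 0.30 there, against 14.61 or more in every other liver group. They entered no comparison. Leaving them out of the liver fit left the counts of members called as they were, while 59 members instead of 64 passed the filter. Brain at day 21, and the second-run brain arrays of days 1, 7 and 14, had neuron gene means of 8.63 to 8.88, against 11.16 to 11.56 in the other brain groups. They entered no comparison, except that brain at day 21 shares the spread of the brain fit and the second-run arrays of day 7 stood in as an alternative, and they count in the tissue means.

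Of the 72 members, 46 had their highest level in liver or an intestinal tissue. The share over all genes was not computed, so this count cannot be read as particular to the members. Taking the mean of each tissue's group means, without the arrays labelled liver at day 56, 20 were highest in liver, 12 in duodenum and 7 in whole intestine. Testes followed with 6, and ileum, ovarian cortex and growth plate with 3 each. The tissues differ in age, with gonads and oocytes the oldest, so tissue and age cannot be told apart in these means. The difference between a gene's highest and lowest tissue had a median of 3.69 on the log2 scale and ran from 0.52 for CYP2AC7 to 8.12 for CYP3A5, a broad drug oxidase. Only 13 members led the next tissue by at least 1, and 43 led by less than 0.5. Gut segments were counted as separate tissues, as were ovary and ovarian cortex, and brain and cerebral cortex. A small lead can therefore lie between parts of the same organ and does not mean a similar level in other organs. Levels are log2 values of different probe sets and are not compared between genes.

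**Figure D1:**
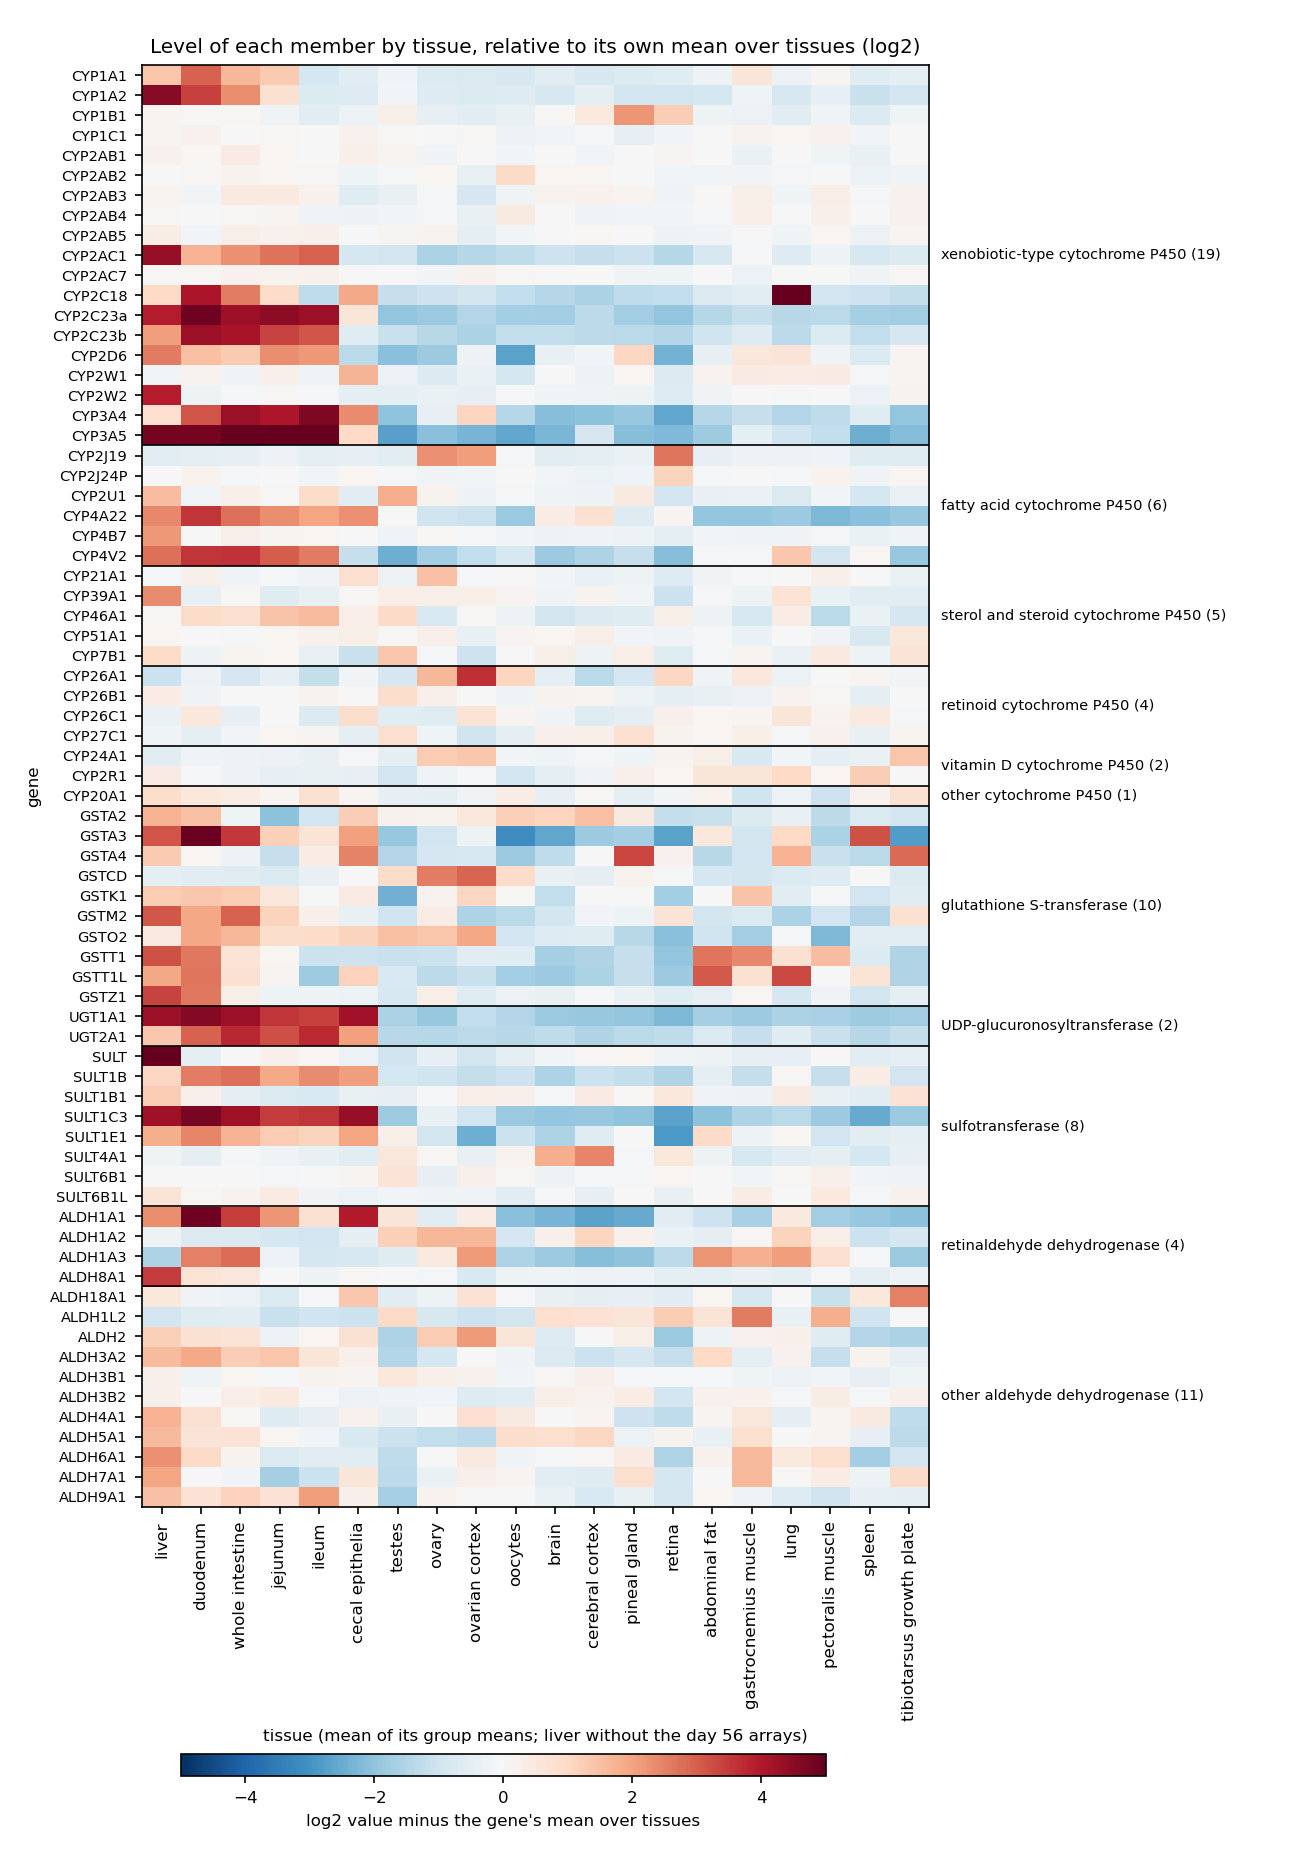
Level of each of the 72 members (rows, grouped by role) in 20 tissues (columns), as the tissue's mean log2 value minus the gene's own mean over tissues; red is higher, blue lower, and the arrays labelled liver at day 56 are left out. Dark red cells gather in liver and the intestinal tissues for CYP3A5, CYP2C23a, UGT1A1 and SULT1C3, while SULT, CYP2W2 and ALDH8A1 are dark red in liver alone.

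SULT, CYP2W2 and ALDH8A1 led furthest in liver. SULT, a sulfotransferase that the platform leaves unnumbered, averaged 11.23 in liver and 6.04 in jejunum, the next tissue. CYP2W2 averaged 9.81 in liver and 6.08 in growth plate. ALDH8A1, grouped here with the retinaldehyde dehydrogenases, averaged 9.66 in liver and 6.84 in duodenum. CYP4B7, CYP39A1 (an oxysterol hydroxylase) and CYP2AC1 led by 1.90, 1.69 and 1.44, again with liver first. CYP1A2, which the aryl hydrocarbon receptor induces, averaged 10.88 in liver and 9.72 in duodenum.

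The gut had its own leaders. GSTA3, an alpha-class glutathione S-transferase, averaged 13.11 in duodenum, 11.71 in whole intestine, 11.35 in spleen and 11.32 in liver, and 5.08 in oocytes, where it was lowest. CYP1A1, another target of the aryl hydrocarbon receptor, averaged 9.38 in duodenum and 8.11 in whole intestine. CYP2W1 was highest in cecal epithelia, at 7.94, with 6.65 in gastrocnemius muscle. ALDH1A1 (retinoic acid synthesis) and CYP4A22 (fatty acid hydroxylation) led in duodenum by 0.87 and 0.81. UGT1A1, the bilirubin-conjugating enzyme of mammals, averaged 12.35 in duodenum and 12.09 in liver.

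At day 7, where most organs had arrays of the same age, liver was set against the mean of 9 other organ classes (intestine, muscle, brain, retina, pineal gland, lung, spleen, abdominal fat and growth plate). Of the 67 members bright enough to be tested, 28 were higher in liver by at least 2 on the log2 scale at an adjusted p under 0.05 (limma with Benjamini-Hochberg adjustment over all 12735 genes), and 0 were lower. The background was 4.06% of genes higher and 0.73% lower, or 4.79% in either direction. Their median difference was 1.55, against 0 over all genes. CYP3A5 had a lowest, median and highest value of 13.34, 13.37 and 13.50 in the 4 liver arrays, and 4.90, 6.14 and 13.75 in the 48 others, so that the ranges overlapped. CYP1A2 had 10.85, 12.10 and 13.10 in liver, and 4.04, 5.77 and 10.38 in the others, without overlap. The differences were 6.44 ± 0.25 (SE) for CYP3A5 and 6.22 ± 0.30 for CYP1A2. Next in size came SULT1C3 (5.05), CYP2C23a (4.93), UGT1A1 (4.42), CYP2W2 (4.20), CYP2AC1 (4.04), GSTA3 (3.95) and GSTZ1, of tyrosine breakdown (3.93). By role the calls were 8 of 15 cytochromes for foreign compounds, 7 of 10 glutathione S-transferases, both glucuronosyltransferases, 2 of 8 sulfotransferases and 3 of 11 other aldehyde dehydrogenases. In 6 of the 28, liver did not overlap with any other organ's array. Overlap was examined in called members alone, here and below. Such counts have no share over all genes beside them and are not further support for the calls. With the mean of a gene's probe sets in place of the brightest, the difference was 2.12 for CYP1A2, 2.45 for CYP2C23a and 3.22 for SULT1C3, all still called. For the 5 groups of the second run, run and organ cannot be told apart.

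Intestine, taken as the mean of duodenum, jejunum and whole intestine, was compared in the same way. Here 19 of 67 members were higher and 0 lower, against a background of 2.83% higher and 1.15% lower (3.99% in either direction). In 3 of the 19, intestine did not overlap with any other organ's array. The median difference of the members was 0.38, and -0.16 over all genes. CYP3A5 again led, with a mean of 13.25 in intestine and 6.97 in the other classes. CYP2C23a followed (5.65, or 3.00 with the mean of its probe sets), then UGT1A1 (5.59), SULT1C3 (5.39), CYP3A4 (5.31), CYP2C23b (4.78) and ALDH1A1 (4.65). CYP3A4 differed by 1.62 in liver, short of the threshold of 2 that CYP3A5, its neighbour in the chicken genome, passed there. The liver comparison counts intestine in its reference, where CYP3A4 averaged 11.61 against 8.3 in liver, so the shortfall depends in part on that reference. Of 11 other aldehyde dehydrogenases, 0 passed in intestine. The liver and intestine comparisons share the other organs' arrays, and each counts the other organ among its references.

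The partners of these enzymes went with them in part. In liver, 4 of 11 receptors and regulators, 2 of 7 electron donors and 4 of 14 other metabolising enzymes were higher. So were 1 of 15 genes of cofactor supply and glutathione, 3 of 10 of retinoid handling (1 was lower) and 2 of 12 export carriers. Of all genes, 4.06% were higher and 0.73% lower. The largest differences there were those of the alcohol dehydrogenase ADH1C (5.30), the steroid reductase AKR1D1 (3.99), the bile salt pump ABCB11 (3.85) and the quinone reductase NQO1 (3.64). In intestine 4 of 11 receptors and regulators, 1 of 7 electron donors and 4 of 14 other metabolising enzymes were higher. The same held for 4 of 15 genes of cofactor supply and glutathione, 1 of 10 of retinoid handling and 2 of 12 export carriers, with 2.83% of all genes. MGST2, a microsomal glutathione transferase (4.32), the export pump ABCB1 (3.61), the carotene-cleaving enzyme BCO1 (3.54) and the transcription factor HNF4A (3.24) led. Hepatocyte markers were higher in liver for 9 of 9 genes and enterocyte markers in intestine for 11 of 11, as the labels say. Of the 11 enterocyte markers, 5 were higher in liver as well, so not all of that list is particular to intestine. In whole tissue, fewer cells of a type and less RNA per cell cannot be told apart.

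At day 3, 7 of 64 tested members in liver were higher than at day 0 and 7 lower, by at least 1 on the log2 scale. In all 14 the 4 arrays of day 3 did not overlap with the 4 of day 0, which was examined in called members only. The background was 2.38% of genes higher and 5.92% lower, or 8.3% in either direction. GSTA4 measured 9.57, 9.31, 9.22 and 9.14 at day 3, and 6.91, 6.55, 6.40 and 7.02 at day 0, a difference of 2.59 ± 0.20 (SE, adjusted p = 2.28e-10). GSTA3 measured 12.20, 11.97, 12.39 and 12.54 at day 3, and 10.42, 10.23, 10.22 and 10.27 at day 0 (1.99 ± 0.22, adjusted p = 9.71e-08). GSTA2 rose by 1.93 and GSTZ1 by 1.41, so that 4 of 10 glutathione S-transferases rose and 0 fell. CYP4A22, a fatty acid hydroxylase, rose by 1.96, and the carnitine-pathway enzyme ALDH9A1 and ALDH8A1 by 1.25 each.

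Other enzymes fell over the same days. CYP2C18 measured 6.64, 5.83, 5.73 and 5.85 at day 3, and 9.82, 9.91, 9.20 and 10.03 at day 0, a difference of -3.73 ± 0.36 (adjusted p = 1.17e-08). SULT1B1, a sulfotransferase known for thyroid hormones, measured 7.93, 7.57, 7.49 and 7.71 at day 3, and 9.31, 10.82, 9.95 and 10.27 at day 0 (-2.41 ± 0.26). CYP1A1 differed by -2.25 and CYP2D6 by -2.01. For each of these 4 the highest array of day 3 lay under the lowest of day 0. ALDH1A3, SULT1B and CYP7B1 also fell, by 1.14, 1.12 and 1.08. ALDH1A3 was dim at day 3, at 5.21 to 5.38, where the 25th percentile of an array was 5.60. With replicate 1 alone in the wide groups, 9 calls were left, and CYP1A1, ALDH8A1, ALDH1A3, SULT1B and CYP7B1 missed the thresholds. CYP2D6 differed by -0.91 with the mean of its probe sets, short of the threshold. Of 9 vascular and meningeal markers 3 were lower at day 3 (median -0.80), and their part was not tested.

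By day 7, 7 members stood above day 0 and 10 below it, with 6.51% and 6.67% of all genes (13.2% in either direction). The largest difference belonged to SULT, the liver sulfotransferase, at 9.04, 8.04, 8.60 and 6.68 at day 7, and 12.74, 12.60, 11.69 and 12.65 at day 0 (-4.33 ± 0.34, adjusted p = 4.39e-11). The low level was found at day 7 among the ages measured: SULT averaged 11.93 at day 1, 11.88 at day 3, 8.09 at day 7, 12.35 at day 9 and 10.68 at day 49. CYP2C18 (-2.79), CYP7B1 (-1.91), CYP2D6 (-1.64), UGT1A1 (-1.51) and CYP2U1 (-1.50) were lower too. CYP7B1 was dim at day 7, at 5.10 to 5.43, where the 25th percentile of an array was 5.53 to 5.56. UGT1A1 measured 11.31, 11.28, 11.08 and 10.59 at day 7, and 12.20, 12.71, 13.54 and 11.87 at day 0, without overlap. GSTA4 (2.27), CYP2C23b (1.95), GSTA3 (1.50), CYP1A2 (1.47) and GSTA2 (1.36) were higher. CYP1A1 and CYP1A2 divided the day 7 arrays: CYP1A2 read 13.10 and 12.81 in replicates 1 and 2 and 11.40 and 10.85 in replicates 3 and 4. CYP1A1 read 10.12 and 10.36 in replicates 1 and 2 and 7.91 and 7.81 in replicates 3 and 4. With replicate 1 alone, CYP2C23b, CYP2D6, CYP1A2, SULT1B1, CYP2AC1 and CYP4A22 missed the thresholds. With the mean of a gene's probe sets CYP1A2 (0.58), CYP2D6 (-0.33) and UGT1A1 (-0.73) missed them. PAPSS2, which makes the sulfate donor of sulfotransferases, differed by -1.53 at day 3 and by -2.42 at day 7. At day 7, 3 of 11 receptors and regulators and 2 of 7 electron donors were lower and 0 higher. Other partners went both ways. Of 15 genes of cofactor supply and glutathione, 2 were higher and 1 lower at day 3, and 3 higher and 2 lower at day 7. Of 13 other metabolising enzymes, 2 were higher and 2 lower at day 7.

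**Figure D2:**
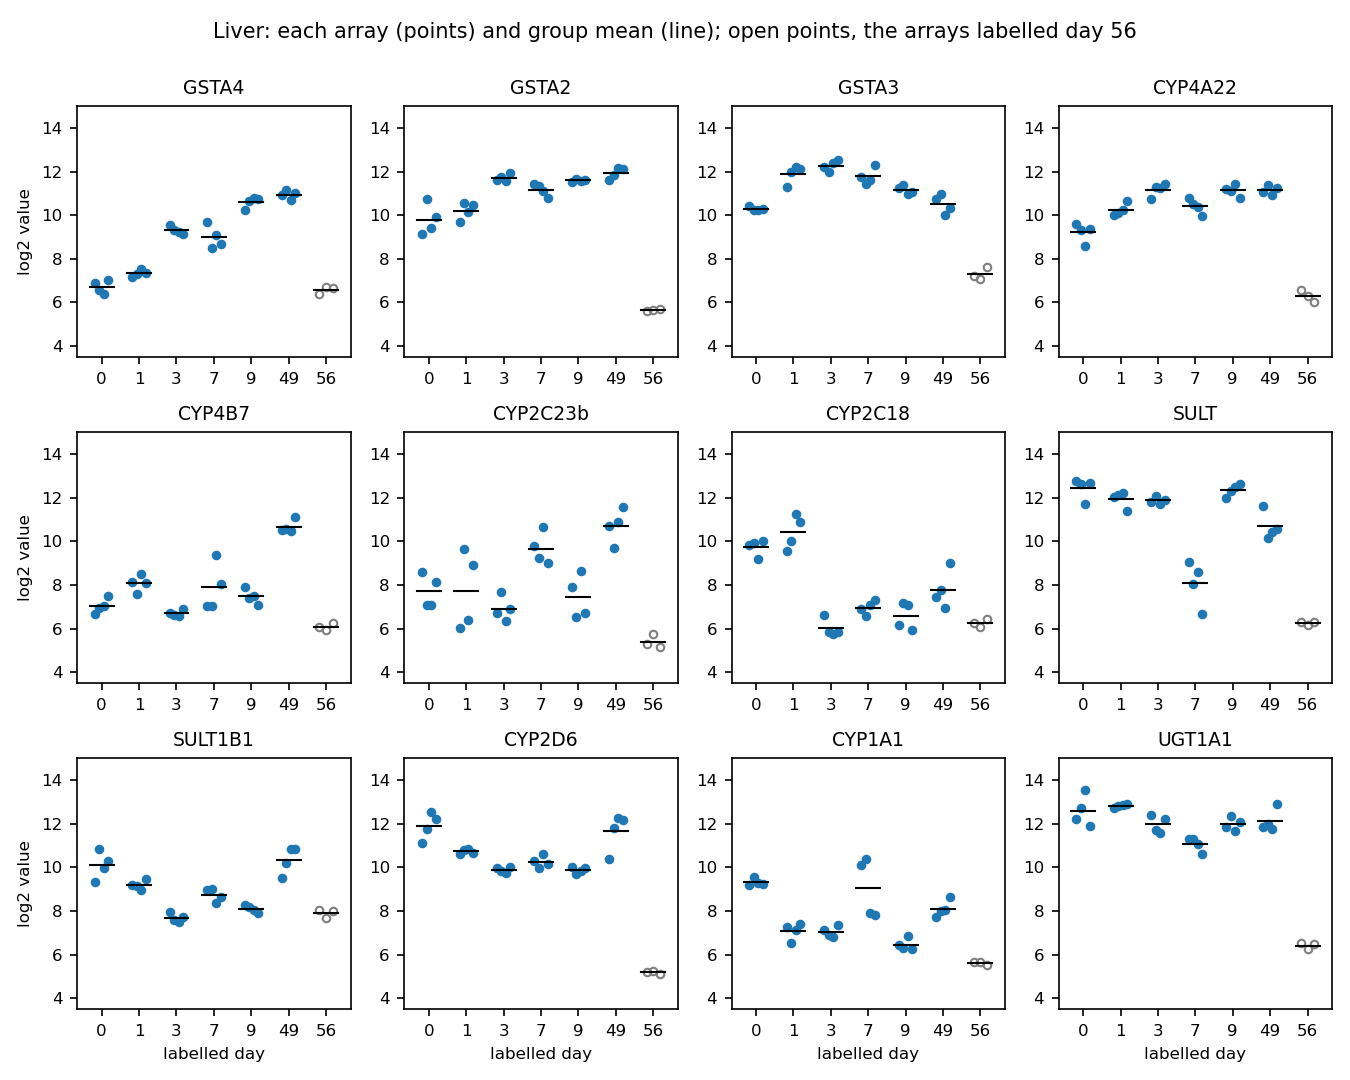
Log2 value of 12 members in each liver array (points) with the group mean (line) by labelled day, from 0 to 56; days are not to scale and open points are the arrays labelled day 56. GSTA4 averages 10.94 at day 49 and 6.72 at day 0, SULT is lowest at day 7 among the filled groups, at 8.09, and the day 56 arrays lie between 5.11 and 8.02 throughout.

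At day 49, 12 members exceeded day 0 and 8 lay under it, against 4.96% and 8.28% of genes (13.2% in either direction). GSTA4 measured 10.91, 11.14, 10.68 and 11.01 at day 49, a difference from day 0 of 4.21 ± 0.20 (adjusted p = 2.91e-15). Its group means were 6.72, 7.33, 9.31, 8.99, 10.61 and 10.94 at days 0, 1, 3, 7, 9 and 49. CYP4B7, of the family that hydroxylates fatty acids, measured 10.53, 10.58, 10.48 and 11.10 at day 49, and 6.66, 6.94, 7.02 and 7.51 at day 0 (3.64 ± 0.32). Both stood clear of all day 0 arrays. CYP2C23b (2.99), GSTA2 (2.13), CYP4A22 (1.94) and CYP2C23a (1.74) were also higher. The lower members were CYP2C18 (-1.96), SULT (-1.74), ALDH5A1 of GABA breakdown (-1.50), CYP20A1 (-1.49), the proline-synthesis enzyme ALDH18A1 (-1.34), the vitamin D 25-hydroxylase CYP2R1 (-1.26), CYP1A1 (-1.22) and CYP1B1, which was at the threshold. GSTA3, which had risen by day 3, averaged 10.52 at day 49 and 10.29 at day 0, and did not pass.

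Both groups of the day 49 comparison are wide. With array weights 7 members passed instead of 20. Replicate 1 alone sets 1 array against 1 array, with a spread taken from other ages, so only differences are given for it. GSTA4 differed by 4.00, CYP4B7 by 3.87, GSTA2 by 2.47, CYP2C18 by -2.37, CYP4A22 by 1.47 and CYP39A1 by 1.37. CYP2C23b (2.07), CYP2C23a (1.79), ALDH1A1 (1.54), CYP2W2 (1.49), CYP1A1 (-1.48), GSTM2 (1.30), SULT (-1.12) and ALDH18A1 (-1.07) also kept a difference of at least 1. Under 1 in size were CYP1B1 (-0.85), CYP2R1 (-0.82), CYP2AC1 (0.78), SULT6B1L (0.76), ALDH5A1 (-0.62) and CYP20A1 (-0.49). CYP2C23a (0.84) and ALDH5A1 (-0.60) also missed the threshold with the mean of their probe sets. The 3 liver comparisons share the day 0 arrays, so they are not independent. Leukocyte markers moved with age: 7 of 8 rose by day 7 (median 2.97) and 8 of 8 at day 49 (median 2.47), with list means of 9.62 to 9.91 and 9.36 to 9.79, against 6.70 to 7.16 at day 0. Of 9 hepatocyte markers, 0 rose and 1 fell at each of these ages. Vascular and meningeal markers were lower in 4 of 9 genes and higher in 1 at day 7 (median -0.84), and lower in 2 at day 49 (median -0.17). The part of these cells in the changes above was not tested.

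In whole intestine at day 7, 3 of 53 tested members stood above day 0 and 6 below it, with 1.94% and 1.07% of all genes (3.01% in either direction), and the arrays of these 9 did not overlap. CYP1A1 measured 8.79, 8.32, 9.47 and 10.27 at day 7, and 6.05, 6.04, 6.28 and 6.40 at day 0 (3.02 ± 0.45, adjusted p = 3.05e-05). CYP1A2 was higher by 2.04 and CYP2C23b by 1.29. The glutathione S-transferases went the other way, with 4 of 10 lower and 0 higher. GSTA3 measured 10.80, 11.43, 10.70 and 10.71 at day 7, and 13.52, 13.40, 13.50 and 13.68 at day 0 (-2.62 ± 0.18, adjusted p = 2.50e-09). GSTT1L differed by -2.48, GSTT1 by -1.94 and GSTA2 by -1.75, as did CYP2C18 by -1.82 and ALDH1A1 by -1.55. CYP1A2 had group means of 7.31, 11.63, 9.68, 9.35 and 7.58 at days 0, 1, 3, 7 and 14. CYP3A5 stayed between 13.08 and 13.66 over those days. With the mean of its probe sets CYP1A2 differed by 0.70 at day 7 and missed the threshold.

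Duodenum at day 7, set against day 0, gave 5 higher and 4 lower among 57 members. The background was 2.64% and 9.13% of all genes (11.8% in either direction), and 5 of the 9 called did not overlap. CYP1A1 measured 8.86, 9.00, 10.24 and 9.69 at day 7, and 5.67, 5.91, 6.16 and 6.20 at day 0 (3.46 ± 0.32, adjusted p = 6.45e-08). CYP2D6 (2.62), CYP2C23b (2.58), CYP1A2 (1.58) and CYP3A5 (1.25) were higher as well, making 5 of 13 cytochromes for foreign compounds. GSTA3 measured 10.41, 10.38, 12.19 and 9.98 at day 7, and 12.90, 11.71, 12.78 and 13.26 at day 0, so that replicate 3 of day 7 overlapped with day 0 (-1.92 ± 0.35). ALDH1A3 (-1.80), GSTA2 (-1.37) and GSTO2 (-1.11) were lower. The SE and p-values share the spread of days 0 to 35. The median SD was 0.46 and 0.49 at days 0 and 7, but 0.14 to 0.16 at days 14 to 35. In a fit of days 0 and 7 only, 4 of 53 members were higher and 2 lower, with 103 and 216 of 10628 genes. Replicate 1 alone sets 1 array against 1 here. ALDH1A3 then differed by -1.09, CYP1A2 by 1.68, GSTA2 by -1.66 and GSTO2 by -0.65. CYP1A2 (0.95) and GSTO2 (-0.61) missed the threshold with the mean of their probe sets. The means of GSTA3 were 12.66, 10.74, 13.29, 13.84, 13.69 and 13.76 at days 0, 7, 14, 21, 28 and 35. Leukocyte markers rose in 7 of 8 genes in whole intestine (median 2.32) and 6 of 8 in duodenum (median 1.75), with list means of 9.15 to 9.65 against 6.70 to 6.89, and of 8.55 to 9.09 against 6.79 to 7.53. Enterocyte markers rose in 1 of 11 and 3 of 11. The part of either in the changes of the enzymes was not tested.

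**Figure D3:**
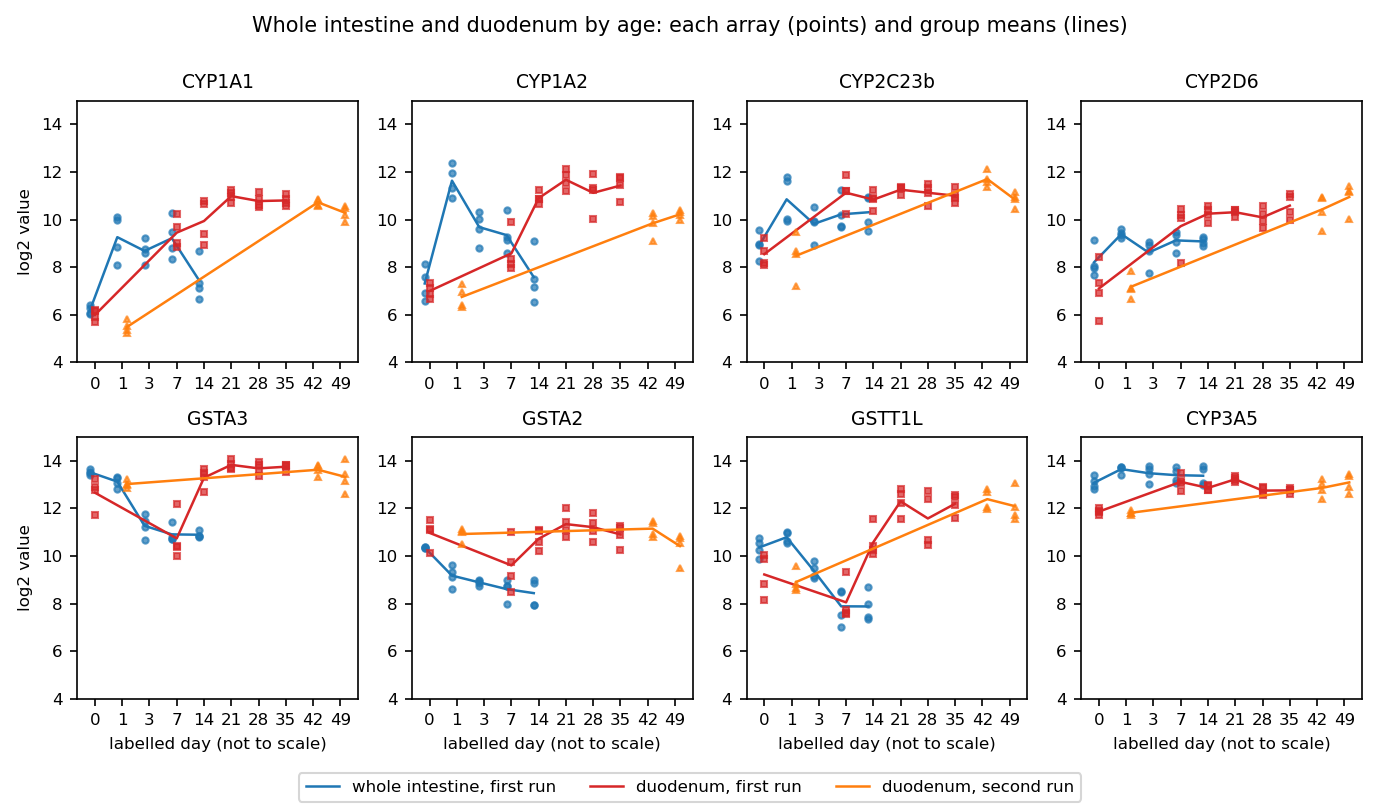
Log2 value of 8 members by labelled day (evenly spaced, not to scale) in whole intestine of the first run (days 0 to 14), duodenum of the first run (days 0 to 35) and duodenum of the second run (days 1, 42 and 49); points are arrays and lines join group means. CYP1A1 starts near 6 and ends above 10 in duodenum, while GSTA3 dips at day 7 in duodenum and stays near 11 in whole intestine from day 3.

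The change by day 7 was also compared between organs, in a test of the difference itself that was added after the values were seen. It was not repeated with replicate 1 alone, and liver at day 0 and duodenum at days 0 and 7 are wide. Between liver and whole intestine, 10 members passed, with 6.57% of 11534 genes, but 2 of them, SULT and CYP7B1, were bright enough in liver alone and too dim in whole intestine to fall there, so that for them the test says nothing of a difference between organs. GSTA3 changed by 1.50 in liver and by -2.62 in whole intestine, and GSTA2 by 1.36 and -1.75 in that order. CYP1A1 changed by -0.26 in liver and by 3.02 in whole intestine, CYP2D6 by -1.64 and 0.92. GSTA4, CYP4A22, GSTZ1 and CYP2U1 were the other members that passed. Between duodenum and whole intestine, 0 of 60 members differed by this test (limma), with 0.407% of genes, and 11 members had an unadjusted p under 0.05.

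In duodenum at day 35, 0 of 57 members passed against day 14 (limma with Benjamini-Hochberg adjustment), and 0% of all genes did; at an unadjusted p under 0.05 there were 6 members and 173 genes. CYP1A1 averaged 10.80 ± 0.21 (SD, n = 4) at day 35 and 9.94 ± 0.91 at day 14. In the second run, day 49 was set against day 1, with 20 of 56 members higher and 3 lower and 9.79% and 8.21% of genes (18% in either direction). CYP1A1 measured 9.90, 10.55, 10.20 and 10.47 at day 49, and 5.54, 5.23, 5.34 and 5.82 at day 1 (4.80 ± 0.33, adjusted p = 4.25e-14). CYP2D6 (3.77), CYP1A2 (3.48), GSTT1L (3.19), GSTA4 (2.60), SULT1B (2.56), CYP4V2 (2.48), CYP2C23b (2.37) and CYP3A4 (2.25) followed. By role the rise held 7 of 13 cytochromes for foreign compounds, all 3 tested that act on fatty acids, 4 of 9 glutathione S-transferases and 4 of 6 sulfotransferases. ALDH1A3, one of the retinoic acid enzymes, measured 9.60, 8.89, 8.94 and 9.33 at day 49, and 11.05, 11.22, 10.26 and 11.57 at day 1 (-1.83 ± 0.36). It fell without overlap, and so did the mitochondrial folate enzyme ALDH1L2 (-1.67). With the mean of their probe sets CYP4V2 (0.75) and ALDH1L2 (-0.92) missed the threshold.

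Other cell markers moved with the rise in duodenum. At day 49, 7 of 11 enterocyte markers (median 1.47) and 7 of 8 leukocyte markers (median 2.84) were higher than at day 1, while 6 of 8 markers of exocrine pancreas (median -4.58) and 3 of 3 of smooth muscle (median -2.07) were lower. The enterocyte list averaged 11.30 to 11.57 at day 49 and 10.04 to 10.84 at day 1. Their part in the rise was not tested. Among partners, BCO1, which cleaves carotene to retinal, rose by 2.45, MGST2 by 1.81 and EPHX1, an epoxide hydrolase, by 1.73, while the sulfate-donor enzyme PAPSS2 fell by 2.19.

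Jejunum at day 42 of the same run had 8 of 61 members higher than at day 1 and 1 lower, with 3.98% and 1.43% of genes (5.41% in either direction). CYP2C23b measured 10.83, 11.12, 9.94 and 12.98 at day 42, and 9.12, 8.17, 8.85 and 9.61 at day 1 (2.28 ± 0.46, adjusted p = 0.00146). CYP4V2 (1.94), CYP4A22 (1.83), CYP3A4 (1.79) and CYP2C23a (1.44) were higher without overlap. ALDH1A3 was lower, at 7.10, 7.56, 6.61 and 6.58 at day 42 and 8.75, 8.29, 9.14 and 8.46 at day 1 (-1.70 ± 0.38). CYP1A1 averaged 7.36 ± 2.18 (SD, n = 4) in jejunum at day 42 and 6.50 ± 0.57 at day 1, and did not pass. Without replicate 2 the count of 9 fell to 5, and with the mean of its probe sets CYP2C23a (0.57) missed the thresholds. Of markers of other cells, 3 of 9 vascular and meningeal (median -0.90), 2 of 8 leukocyte (median -0.85) and 1 of 4 smooth muscle genes were lower at day 42, and their part was not tested.

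Gut segments were compared at 1 age each. In ileum against jejunum at day 28, 0 of 60 members passed (limma), with 0.111% of genes higher and 0.0681% lower (0.179% in either direction); 10 members had an unadjusted p under 0.05. GSTA2 measured 8.10, 7.49, 9.70 and 8.13 in ileum, and 6.15, 5.81, 9.27 and 6.03 in jejunum. ALDH9A1 measured 11.70, 11.77, 12.02 and 11.53 in ileum, and 10.49, 10.36, 11.85 and 9.25 in jejunum. In both genes replicate 3 of jejunum lies at the level of ileum, and over all genes the replicate 3 arrays of the pair were each other's nearest, at a mean difference of 0.124. Without replicate 3, ALDH9A1 (1.63), GSTA2 (1.91) and GSTT1 (-1.49) passed, with adjusted p of 0.00837, 0.016 and 0.0404. Over all 11769 genes tested in that setting, 43 were higher and 39 lower. Without replicate 1, 2 or 4, 0 members and 0 genes passed.

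Many oxidising enzymes were lower in cecal epithelia at day 14 than in duodenum of that age. The first label names epithelia and the second a gut segment, so segment and preparation cannot be told apart. Of 60 tested members 25 were lower in cecal epithelia and 3 higher, with 7.57% and 7.97% of all genes (15.5% in either direction), and in 25 of these 28 the arrays did not overlap. CYP1A2 measured 5.85, 5.70, 5.79 and 5.42 in cecal epithelia, and 11.23, 10.87, 10.64 and 10.86 in duodenum (-5.21 ± 0.51, adjusted p = 2.70e-09). CYP4V2, a fatty acid hydroxylase, measured 5.97, 6.18, 5.84 and 6.95 in cecal epithelia, and 11.53, 11.53, 11.59 and 11.33 in duodenum (-5.26 ± 0.34). CYP3A5 measured 8.53, 8.68, 8.95 and 9.55 in cecal epithelia, and 12.76, 12.99, 12.95 and 12.76 in duodenum (-3.94 ± 0.20). Of the cytochromes for foreign compounds 9 of 15 were lower, and of the glutathione S-transferases 6 of 10. With the mean of its probe sets CYP1A2 differed by -2.01. The median difference was -2.71 over those 15 and -1.34 over those 10, against 0 over all genes.

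The conjugating enzymes did not all differ in 1 direction. GSTZ1 (-3.42), GSTT1 (-3.19) and GSTA3 (-3.09) were lower in cecal epithelia, but GSTA4 was higher, at 9.14, 10.29, 9.91 and 11.28 in cecal epithelia and 8.54, 7.40, 7.96 and 7.74 in duodenum (2.25 ± 0.58, adjusted p = 0.00195). ALDH18A1 (1.65) and CYP2W1 (1.49) were the other members that were higher. UGT1A1 averaged 11.98 ± 1.16 (SD, n = 4) in cecal epithelia and 11.97 ± 0.48 in duodenum. Of 13 other metabolising enzymes 6 were lower, among them EPHX1 (-3.25), and of 8 genes of retinoid handling 5 were lower, among them BCO1 (-3.15). Of 9 export carriers 4 were lower, among them ABCB11 (-3.19) and ABCB1 (-3.04), and 2 were higher. Of 11 enterocyte markers 10 were lower in cecal epithelia (median -5.53), with list means of 7.07 to 7.77 there and 11.59 to 11.72 in duodenum; 6 of 9 vascular and 3 of 4 smooth muscle markers were lower too. Their part in the differences of the enzymes was not tested.

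**Figure D4:**
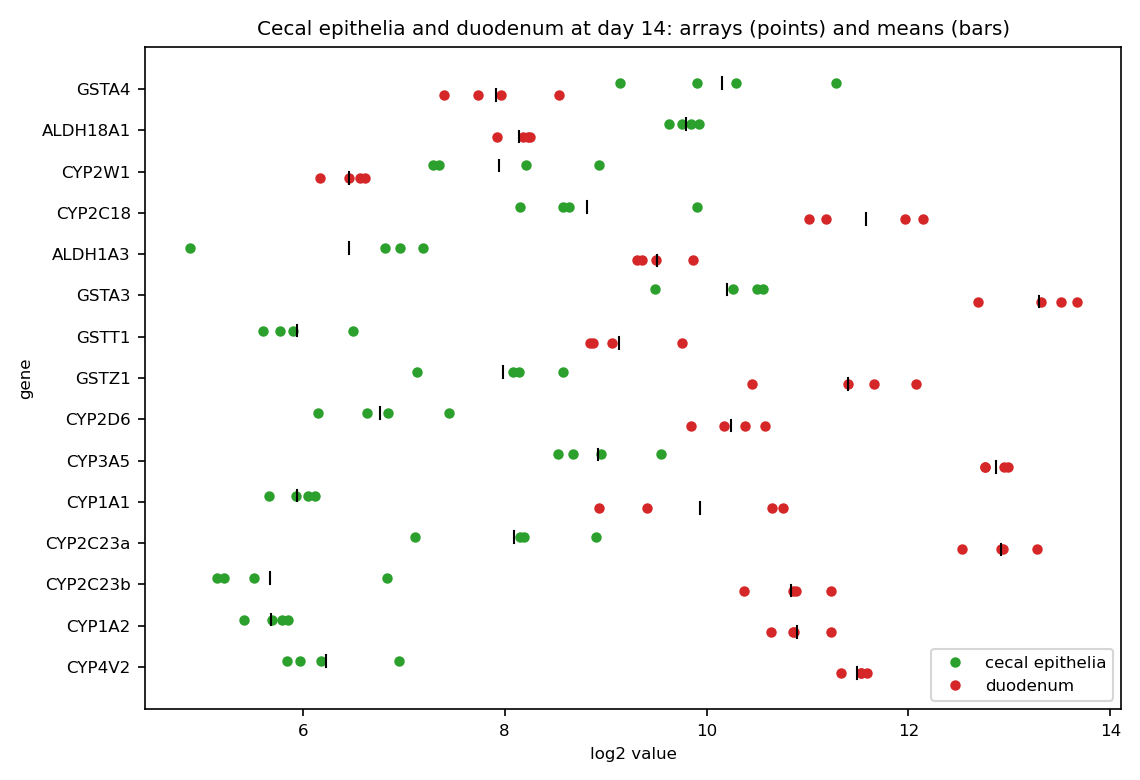
Log2 value of the 15 members named for cecal epithelia against duodenum at day 14; points are the 4 arrays of each tissue and bars the means. Cecal epithelia lie right of duodenum for GSTA4, ALDH18A1 and CYP2W1 and left of it for the other 12, with no overlap in any of the 15.

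In the gonads at week 17, 7 of 54 tested members were higher in testes than in ovary and 13 lower, with 14.2% and 17.7% of all genes (31.9% in either direction). CYP2J19, which makes red ketocarotenoids in birds, measured 5.45, 5.70 and 5.96 in testes, and 9.47, 9.32 and 9.10 in ovary (-3.59 ± 0.26, adjusted p = 2.71e-10). CYP21A1, the steroid 21-hydroxylase of the adrenal, measured 6.42, 6.22 and 6.08 in testes, and 9.39, 8.60 and 9.97 in ovary (-3.08 ± 0.31). CYP26A1, which degrades retinoic acid, measured 4.32, 4.52 and 5.20 in testes, and 7.11, 7.34 and 8.67 in ovary (-3.03 ± 0.53). The 25th percentile of a testes array was 5.51 to 5.56, so CYP26A1 was dim there. In all 3 genes the ovary arrays lie well above the testes arrays. ALDH2, the acetaldehyde enzyme, was at 9.66, 9.93 and 9.03 in testes and 12.47, 11.95 and 12.84 in ovary (-2.88 ± 0.30). SULT1C3 (-2.46), GSTCD (-2.33) and GSTK1 (-2.21) were also lower in testes.

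Testes led in another set. CYP46A1, the cholesterol 24-hydroxylase, measured 8.91, 8.48 and 9.57 in testes, and 6.57, 7.55 and 6.56 in ovary (2.09 ± 0.37, adjusted p = 8.44e-05). CYP2U1 (1.54), ALDH1L2 (1.53), SULT6B1 (1.50), the oxysterol hydroxylase CYP7B1 (1.36), CYP27C1 (1.24) and CYP4A22 (1.04) were higher as well. From lowest to highest, the ovary arrays read 3.95, 6.13 and 6.28 for SULT6B1 and 4.00, 5.86 and 6.22 for CYP7B1. In both genes 1 low ovary array widened the difference. CYP27C1 averaged 6.21 in testes and 4.97 in ovary, where the 25th percentile of an array was 5.53 to 5.55, so it was dim there. The share of tested members called was 13.0% higher and 24.1% lower, beside the 14.2% and 17.7% of all genes. Of 6 testis germ cell markers 4 were higher in testes, and of 9 granulosa and theca markers 4 were lower. Among partners, AKR1D1 (-7.43), UGDH, which makes the glucuronic acid donor (-4.11), and the electron carrier CYB5A (-3.31) were lower in testes, and MGST3 (2.60) was higher. With replicate 1 alone, SULT6B1, ALDH6A1 and CYP4A22 missed the thresholds, as CYP27C1 (0.73) and ALDH6A1 (-0.58) did with the mean of their probe sets. The part of the gonads' cell types in these differences was not tested.

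**Figure D5:**
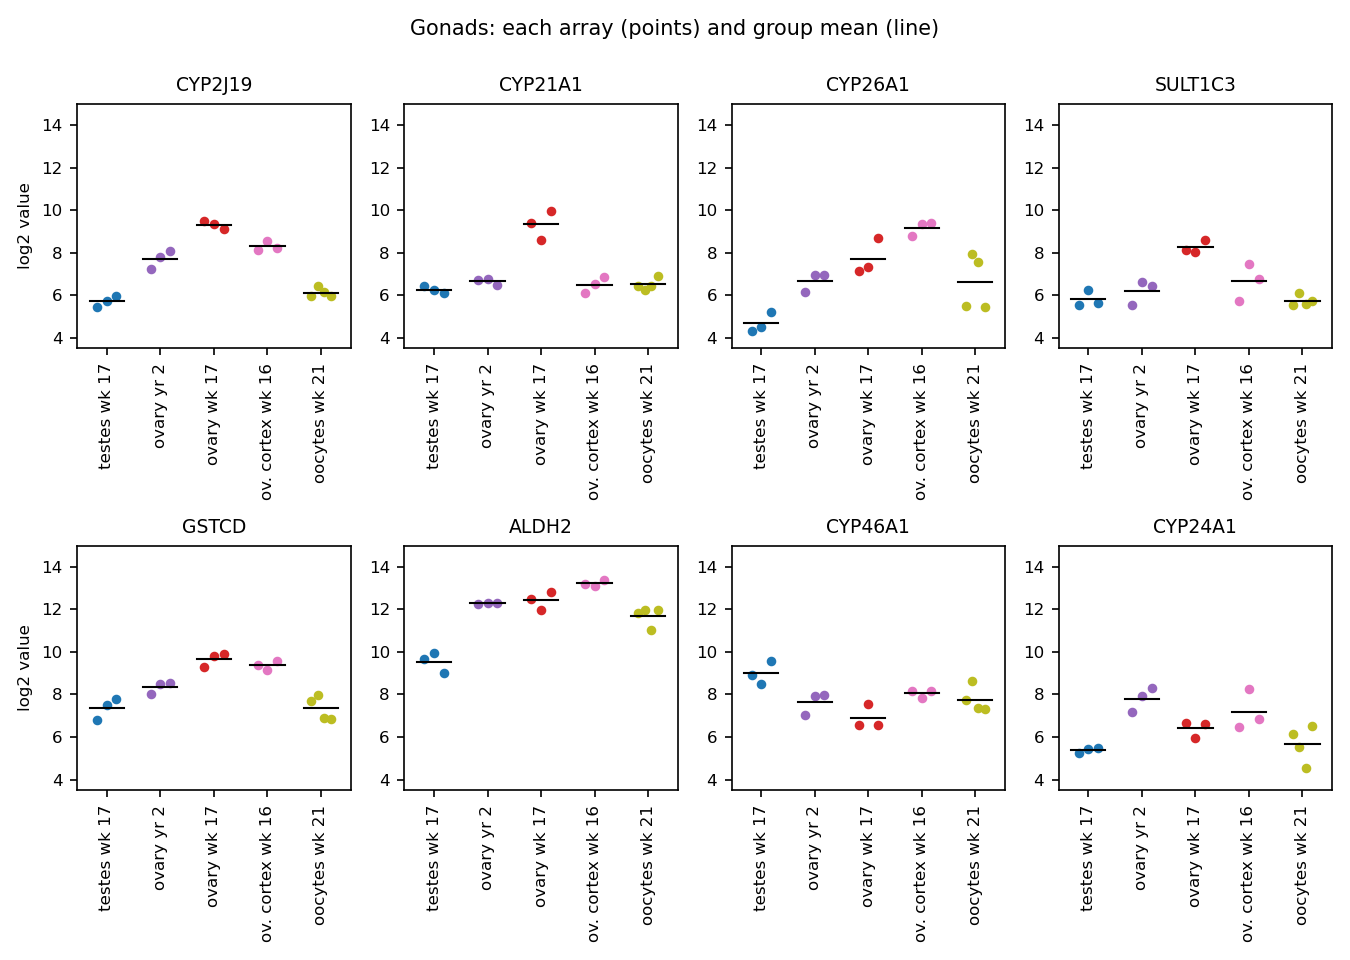
Log2 value of 8 members in testes and ovary at week 17, ovary at year 2, ovarian cortex at week 16 and oocytes at week 21; points are arrays and lines group means. CYP21A1 is high in ovary at week 17 alone, at 9.32, with 6.24 to 6.65 in the other groups, and CYP26A1 is highest in ovarian cortex, at 9.16.

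Ovary at year 2 was set against ovary at week 17. Of 54 members 2 were higher and 6 lower, without overlap, with 5.95% and 5.29% of genes (11.2% in either direction). CYP21A1 measured 6.72, 6.76 and 6.47 at year 2, and 9.39, 8.60 and 9.97 at week 17 (-2.67 ± 0.31, adjusted p = 7.20e-06). CYP2J19 measured 7.23, 7.81 and 8.06 at year 2, and 9.47, 9.32 and 9.10 at week 17 (-1.60 ± 0.26). These were the members that passed with replicate 1 alone. SULT1C3 (-2.07), GSTCD (-1.34), the oestrogen sulfotransferase SULT1E1 (-1.11) and CYP2C18 (-1.11) were lower, and GSTA3 (1.57) and CYP24A1, which breaks down vitamin D hormone (1.39), were higher. GSTA3 had 7.15, 7.59 and 9.20 at year 2, and 6.69, 6.80 and 5.75 at week 17. Without replicate 2 or replicate 3 the count of 8 was 3 or 4. SULT1E1 (-0.35) and CYP2C18 (-0.62) missed the thresholds with the mean of their probe sets. Of 9 Leydig and Sertoli markers 2 were higher and 3 lower at year 2, and of 9 granulosa and theca markers 1 was higher and 2 lower. Of 9 vascular and meningeal markers 3 were higher, as were 2 of 6 of oviduct and ovary surface. The part of these cells was not tested. Both comparisons share the week 17 arrays of ovary, all labelled male.

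Enzymes of retinoic acid were followed through the ovarian groups. CYP26A1 averaged 9.16 ± 0.34 (SD, n = 3) in ovarian cortex, 7.71 ± 0.84 in ovary at week 17, 6.68 ± 0.47 at year 2 and 6.61 ± 1.31 (n = 4) in oocytes. It led the next tissue by 1.97, and the oocyte arrays spread from 5.46 to 7.92. ALDH1A3, which makes retinoic acid, averaged 9.40 ± 0.71 in ovarian cortex, 7.71 ± 0.56 in ovary at week 17 and 7.79 ± 0.25 at year 2. ALDH1A2, of the same function, averaged 8.72 ± 0.68 in ovarian cortex, 8.89 ± 0.47 in ovary at week 17 and 8.55 ± 0.16 at year 2. At year 2 against week 17, CYP26A1 (-1.03, adjusted p = 0.204), ALDH1A3 (0.08, adjusted p = 0.903) and ALDH1A2 (-0.34, adjusted p = 0.518) did not pass limma's test, and ovarian cortex and oocytes were not tested. ALDH2 was highest in ovarian cortex, at 13.24 ± 0.14.

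In brain at day 7 against the 9 other organ classes, 2 of 67 members were higher and 3 lower, with 4.7% and 1.14% of all genes (5.83% in either direction). SULT4A1, a sulfotransferase-like protein of neurons, averaged 9.51 in brain and 6.22 in the other classes (3.29 ± 0.25, adjusted p = 3.9e-18). GSTA2 averaged 11.39 in brain and 8.96 elsewhere (2.43 ± 0.33). GSTA3 (-3.25), CYP3A5 (-2.29) and GSTT1L (-2.04) were lower. The reference includes liver and intestine, where CYP3A5 averaged 13.4 and 13.25. Its brain arrays read 5.23 to 6.00 and the 48 others 4.90 to 13.75, with a median of 6.73, so the ranges overlapped. GSTA2 differed by 1.81 with replicate 1 alone, short of 2. GSTT1L lost the call in 4 of 12 alternatives, among them the mean of its probe sets (-0.89). With the second-run brain arrays of day 7 in place of the first-run ones, 0 were higher and 7 lower. Of the 12746 genes tested there, 300 were higher and 416 lower, against 598 and 145 of 12735 in the main fit. SULT4A1 averaged 6.71 ± 0.30 (SD, n = 4) in the second-run arrays of day 7 and 9.51 ± 0.44 in the first-run arrays of day 7. Their erythrocyte lists averaged 12.14 and 9.55.

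Brain at days 28, 35 and 42 was compared with days 0, 7, 8 and 9 of the same run. Of 48 tested members 0 were higher and 5 lower, with 2.77% and 6.34% of all genes (9.12% in either direction), and all 5 overlapped. SULT4A1 had a lowest, median and highest value of 6.42, 8.60 and 9.34 in the 12 later arrays, and 8.72, 9.64 and 10.74 in the 16 earlier ones (-1.16 ± 0.18, adjusted p = 8.83e-07). CYP1B1, an extrahepatic oxidase, had a median of 5.73 in the later arrays and of 7.05 in the earlier ones (-1.12 ± 0.14). Both passed with replicate 1 alone, whereas GSTA2 (-1.39), SULT1B1 (-1.18) and the lysine-pathway enzyme ALDH7A1 (-1.06) did not. Of other cells' markers, 5 of 9 vascular and meningeal (median -1.68) and 3 of 6 astrocyte genes (median -1.45) were lower in the later arrays. So were 2 of 4 oligodendrocyte (median -1.20) and 2 of 4 erythrocyte genes (median -1.25), while 2 of 6 leukocyte genes were higher. Their part was not tested.

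Cerebral cortex at day 7 had 3 of 48 members higher than whole brain and 0 lower, with 4.76% and 5.47% of genes (10.2% in either direction). CYP3A5 measured 5.76, 6.58, 5.91 and 10.05 in cortex, and 5.54, 5.23, 6.00 and 5.39 in brain, so that replicate 4 stood far above the other cortex arrays (1.53 ± 0.44). That array also had a mean of 10.73 over hepatocyte markers, which lay at 6.69 in the lowest cortex array. GSTK1, of mitochondria and peroxisomes, measured 9.92, 9.04, 9.41 and 9.72 in cortex, and 8.43, 8.88, 7.35 and 8.49 in brain, without overlap (1.24 ± 0.26, adjusted p = 0.000548). GSTA3 differed by 1.05, and its range of 5.71 to 7.56 in cortex overlapped with 4.35 to 5.92 in brain. With replicate 1 alone in brain, CYP3A5 (1.53) and GSTA3 (0.76) missed the thresholds, and GSTK1 differed by 1.09. Without replicate 4, 1 member passed. Of 9 hepatocyte markers 4 were higher in cortex and 1 lower, and 3 of 7 neuron, 2 of 4 oligodendrocyte, 2 of 6 astrocyte and 3 of 9 vascular and meningeal genes were lower. Their part was not tested.

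Of the 72 members, 30 lie beside another member in the RefSeq annotation of assembly GRCg7b, in 12 rows of neighbours, and neighbours did not always move alike. CYP3A4 and CYP3A5 are neighbours on chromosome 14, GSTA4 and GSTA3 on chromosome 3, and CYP2C23b and CYP2C23a on chromosome 6. In liver from day 0 to day 49, GSTA4 rose by 4.21 while GSTA3 did not pass, and CYP4B7 rose by 3.64 and its neighbour CYP4A22 by 1.94. SULT1B rose by 2.56, SULT1E1 by 1.65, UGT2A1 by 1.47 and SULT1B1 by 1.25 in duodenum at day 49, and these 4 form a row on chromosome 4 (UGT2A1 and SULT1B1 were named after their values were seen). For 21 members, among them GSTA2, GSTA3, UGT1A1, CYP4V2, CYP4B7 and both CYP2C23 genes, the probe set is of a kind that can read more than 1 transcript, so near-identical family members may share its signal.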

How the data were processed

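Values were deposited as log2 values per probe set and array; per the submitters' processing notes the authors used Affymetrix Expression Console 1.1. For the normalization between arrays, no method is given in the sources used here. Of 38439 probe sets other than controls, 27168 carried 1 gene symbol and were used; all 72 members matched RefSeq by gene number. No column belonged to samples outside the series (0). The number of arrays limits the precision.

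Group-mean models were fitted with limma 3.58.1 in R 4.3.3 to all genes, 1 probe set a gene, after a filter at the 25th percentile of the fit's values, which a gene passed through its brightest group. The spread of a gene was shared over all groups of a fit. The SE and p-values of a comparison of wide groups therefore borrow from narrow groups in the same fit. Adjustment was Benjamini-Hochberg, over every gene tested in a comparison. A call needed an adjusted p under 0.05 and an absolute log2 difference of at least 1, or 2 for organ classes; the log2 differences are computed from the authors' values. Named members passed these thresholds, up to 12 per direction in order of size; tissue leaders were up to 8 a tissue by gap; partners up to 4 a comparison. Members, lists and tests were chosen with earlier results of these data known. The fits were checked on simulated data. These gave a gene the same spread in every group and independent arrays, so the check does not cover the wide groups. Plots came from matplotlib 3.10.9 (Python 3.11.15).

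Only testes and ovary met the rule that the deviations of every same-numbered pair correlate above 0.1 (0.107 to 0.485 over 3 pairs); ileum and jejunum (0.097 to 0.652) and liver at day 49 (0.050 to 0.584) missed it in 1 pair or more. Any pairing rests on that check, not on the labels, and testes and ovary at week 17 are both wide groups. Titles gave tissue and age; in the second run the free descriptions name other tissues or ages, the descriptions of brain at days 28 to 42 give weeks, and that of ovary at year 2 gives weeks. Alternatives were no filter, quantile normalization, the mean of a gene's probe sets, array weights, replicate number as a block, each replicate left out, only the groups compared, other groups for the organ classes, and, added after seeing the data, replicate 1 alone in wide groups and fits without liver at day 56 or brain at day 21.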

Additional observations from a re-analysis of the deposited data

Results flagged for a closer look

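In 10 of 238 gene and group pairs (4.2%) 1 array stood far from the other 3 of its group; chance gives about 1 in 20. In liver these were CYP2C18 at day 3 (6.64 in replicate 1, others 5.73 to 5.85), CYP7B1 at day 7 (5.43 in replicate 3, others 5.10 to 5.14) and CYP4B7 at day 49 (11.10 in replicate 4, others 10.48 to 10.58). At day 0 of liver they were SULT (11.69 in replicate 3, others 12.60 to 12.74), ALDH1A1 (8.83 in replicate 1, others 10.01 to 10.12), CYP20A1 (9.77 in replicate 2, others 9.43 to 9.46) and CYP2R1 (7.52 in replicate 3, others 6.50 to 6.67). The other 3 were GSTA3 in whole intestine at day 7 (11.43 in replicate 2, others 10.70 to 10.80), ALDH1A3 in cecal epithelia at day 14 (4.88 in replicate 4, others 6.81 to 7.19) and SULT4A1 in brain at day 28 (6.42 in replicate 4, others 8.23 to 8.60).

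The change from day 0 to day 7 differed between liver and whole intestine in 8 members, by limma's test of the difference with Benjamini-Hochberg adjustment. The liver change exceeded the whole intestine change by 4.11 for GSTA3 (adjusted p = 1.72e-06), 3.10 for GSTA2 (0.00044), 2.16 for GSTA4 (9.93e-05), 1.72 for CYP4A22 (0.00224) and 1.71 for GSTZ1 (0.0132). The difference was negative for CYP2U1, at -1.66 (0.00158), CYP2D6, at -2.56 (0.013), and CYP1A1, at -3.28 (0.00115). SULT and CYP7B1 passed it too, at -4.33 and -1.72, but they were bright enough to be tested in liver alone and too dim in whole intestine to fall there, so their values say nothing of a difference between organs. Liver at day 0 is one of the wide groups, and this test was not repeated with replicate 1 alone.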

How the results depend on the processing

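Of 1902 values of named members under the alternatives, 1708 stayed called in the same direction, 194 lost the call and 0 turned round. Replicate 1 alone in the wide groups cost 44 of 123 calls and array weights 32 of 172; the replicate block cost 0 of 172. Counts of called members that moved by over 1.5 times were these, the cause not tested. Replicate 1 alone, which leaves 1 array in each wide group, moved 4 counts. These were liver at day 3 (14 in the main setting), liver at day 49 (20), ovary at year 2 (8) and later brain (5). With array weights, liver at day 49 gave 7, ileum against jejunum 3 (0) and cerebral cortex 1 (3). The mean of a gene's probe sets gave 5 for ovary at year 2, quantile normalization 3 for later brain, and a fit of only the groups compared 1 for cerebral cortex. Leaving out 1 replicate in turn gave 5 to 7 for jejunum (9), 0 to 3 for ileum against jejunum, 3 to 7 for ovary at year 2 and 1 to 7 for cerebral cortex. With the replicate block, testes against ovary, where same-numbered arrays correlated above 0.1, gave 20 calls as without it. Ovary at year 2 gave 10, and the block changed no other count of calls. Members under the brightness filter, such as SULT in whole intestine, could not be tested for a fall.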

Other observations

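Outside liver, gut, gonads and brain, growth plate led for 3 members. Gastrocnemius muscle, lung, pineal gland and retina led for 2 each, and spleen for 1. CYP2C18 was highest in lung, with group means from 11.68 to 12.48 over days 1 to 42 and a lead of 1.05 over duodenum. ALDH18A1, of proline synthesis, was highest in growth plate, at 10.98, and led by 1.19. GSTA4 averaged 11.01 in pineal gland and 10.52 in growth plate. CYP1B1 averaged 8.29 in pineal gland and 7.29 in retina.

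In retina, CYP2J19, the ketocarotenoid enzyme, averaged 8.88, the highest of the tissues, ahead of ovary by 0.38. CYP2J24P had means of 5.15, 5.91, 5.10, 6.70, 7.31, 6.79 and 7.34 at days 1, 7, 9, 14, 21, 28 and 35 in retina, over both runs, and no test was made. In jejunum, GSTA2 averaged 10.02 ± 0.22 (SD, n = 4) at day 35, 6.03 ± 0.18 at day 21 and 6.16 ± 0.22 at day 42; the jejunum arrays of day 35 stood apart from those of the neighbouring ages, and day 21 belongs to the other run. ALDH1L2 in pectoralis muscle averaged 5.75 ± 0.41 at day 21 and 5.90 ± 0.43 in the 6 arrays of conflicting age labels, with 8.84 ± 0.49 in the other set of day 21.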
